A study of Mus musculus with 4 samples.

Results

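The matricellular group comprised 10 genes, measured in sorted stromal cells of the mouse prostate: the thrombospondins Thbs1, Thbs2 and Thbs3, Sparc and its relative Sparcl1, tenascin C (Tnc), periostin (Postn), fibronectin (Fn1) and the CCN genes Ccn2 (older symbol Ctgf) and Ccn1 (older symbol Cyr61). They were chosen by gene symbol, but with earlier results of these data known. All 10 members were found among 25735 named genes, and all 10 were among the 11261 genes tested. The cells came from adult C57BL/6 mice, from the proximal prostatic ducts next to the urethra or from the distal ducts at the lobe tips. Cell sorting took the same Lin-CD24-CD49f-Sca-1+ fraction in both regions, that is cells without lineage markers, the epithelial antigen CD24 or integrin alpha 6 (CD49f), and with Sca-1, the product of Ly6a. There were 2 libraries per region, called distal 2, distal 3, proximal 2 and proximal 3 after the numbers in their labels. The design text gives the search for stromal signals as the aim. Whether separate or pooled animals gave the libraries is not in the labels, so the p-values reflect variation among 4 libraries that could be technical.

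Matricellular proteins are secreted into the extracellular matrix, where they act less as scaffold than as modulators of adhesion, growth factors and proteases. Thrombospondins bind CD47, CD36 and integrins, and thrombospondin 1 can activate latent TGF-beta. SPARC binds collagen, tenascin C and periostin are matrix proteins of remodelling tissue, fibronectin carries the binding site of integrin alpha 5 beta 1, and CCN1 and CCN2 are integrin ligands whose genes respond quickly to YAP/TAZ and serum factors.

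Values are FPKM, that is fragments scaled by transcript length and by the mapped fragments of the library, so they are levels per length and can be set beside each other between genes. Of the group, 4 genes stood among the more abundant of the 11261 tested: Thbs1 ranked 22 by mean FPKM over the 4 libraries, Sparc 40, Ccn1 83 and Ccn2 272. Mean FPKM over the 4 libraries was 1378 for Thbs1, 969 for Sparc, 586 for Ccn1, 207 for Ccn2, 158.5 for Sparcl1, 41.0 for Postn, 28.1 for Thbs3, 19.85 for Thbs2, 15.2 for Fn1 and 13.2 for Tnc. Sparc, Ccn1, Ccn2, Sparcl1 and Postn followed each other in that order with no overlap between neighbours in any library. Thbs1 spread so widely that its range held that of Sparc, and the ranges of Postn, Thbs3, Thbs2, Fn1 and Tnc each overlapped with the next.

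**Figure D1:**
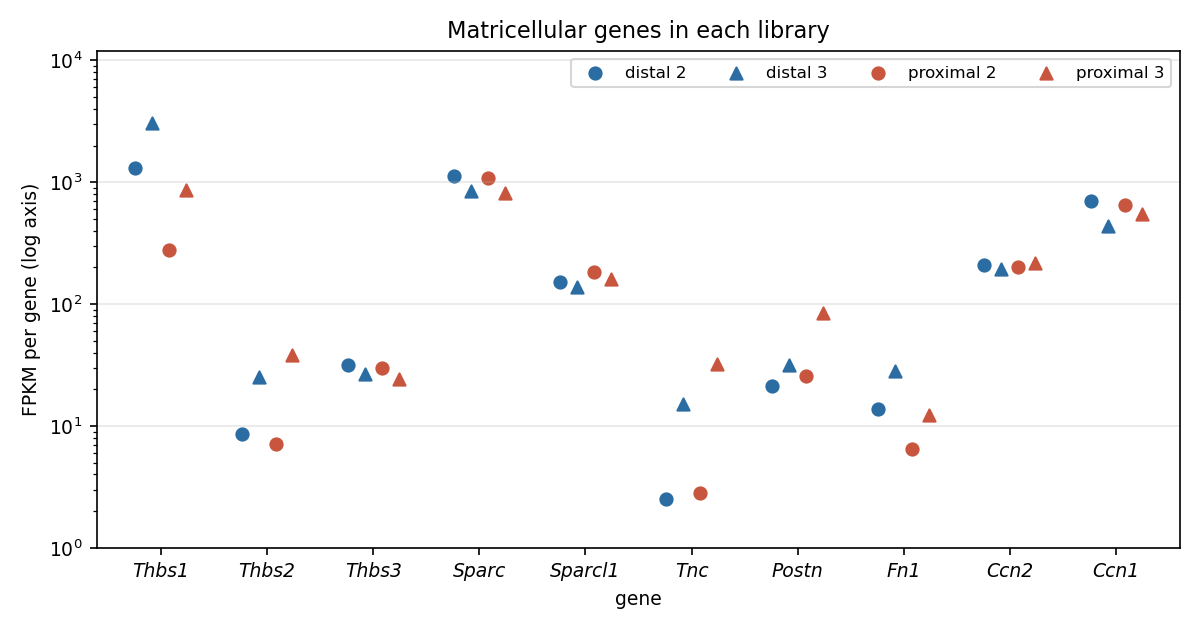
FPKM of the 10 matricellular genes in each library, on a log axis (blue, distal; red, proximal; circles, libraries numbered 2; triangles, libraries numbered 3). Both proximal values of Thbs1 and of Fn1 lie below both distal values, while Thbs2, Tnc and Postn are highest in proximal 3.

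Among the 10 genes 0 passed the comparison of proximal with distal stroma (limma on log2(FPKM + 1), Benjamini-Hochberg adjustment over all 11261 genes, threshold 0.05), as did 0% of all genes in either direction. The smallest adjusted p of any gene was 0.199, each of the 10 had an adjusted p of 0.9999 (limma), and 1 of them, Thbs1, had an unadjusted p under 0.05. At that unadjusted p, 2.25% of all genes were higher and 0.915% lower in proximal stroma. Both proximal libraries lay below both distal libraries for 2 members, Thbs1 and Fn1, against 8.65% of all genes, and above them for 1 member, Sparcl1, against 13% of all genes. With 2 libraries a region, missing this threshold does not show that levels were alike. With library number added as a term, Thbs1 and Fn1 passed (adjusted p = 0.0220 and 0.0242, limma), as did 2.79% of all genes as higher and 1.34% as lower in proximal stroma; no label says that the numbers pair the libraries. The median log2 difference of the 10 was 0.08, beside 0.09 over all genes. Quantile normalization shifted the median of all genes by -0.12 and median ratio scaling by -0.15 on the log2 scale.

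Thbs1 had the largest difference between regions in the group. It stood at 1304 and 3070 FPKM in distal 2 and 3, against 279.8 and 856 FPKM in proximal 2 and 3. Both distal libraries were above both proximal ones, and within each region the library numbered 3 was the higher. Distal stroma averaged 2187 ± 1248 FPKM and proximal stroma 568 ± 408 FPKM (SD, n = 2 libraries each), a ratio of 3.85. The log2 difference of proximal minus distal was -2.03 ± 0.70 (SE; unadjusted p = 0.0325, adjusted p = 0.9999, limma). Proximal 2 differed from distal 2 by -2.22 and proximal 3 from distal 3 by -1.84. Leaving out proximal 3 gave -2.83 and leaving out proximal 2 gave -1.22, the extremes over the 4 libraries. The gene lies on chromosome 2 at 118111876 to 118127133 (plus strand, mm10), and 208 of its exon bases are shared with the antisense gene Gm29233, to which no listed transcript was assigned.

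The other 2 thrombospondins did not follow Thbs1. Thbs2, an inhibitor of angiogenesis and a regulator of collagen fibril assembly, stood at 8.55 and 25.3 FPKM in distal 2 and 3, against 7.16 and 38.4 FPKM in proximal 2 and 3. The regions overlapped and the libraries numbered 3 were the higher in both. Its log2 difference between regions was 0.18 ± 0.90 (SE), with opposite signs within number 2 (-0.23) and number 3 (0.58), and it was -0.96 without proximal 3 and -0.55 without distal 2. Thbs3, a pentameric thrombospondin best known from cartilage and tendon, stood at 31.6 and 26.7 FPKM in distal and at 30.2 and 24.1 FPKM in proximal libraries. It was nearly level across the 4 libraries, with a log2 difference of -0.10 ± 0.34 (SE) that became 0.01 without distal 2 and 0.05 without proximal 3. Thbs3 shares 318 exon bases with Mtx1 on the opposite strand, whose own level was 6.36 to 12.2 FPKM, and the libraries do not mark strand.

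Sparc and Sparcl1 were high in all 4 libraries. Sparc, a collagen chaperone and counter-adhesive protein, stood at 1132 and 849 FPKM in distal 2 and 3, against 1077 and 819 FPKM in proximal 2 and 3. The regions were interleaved, and the libraries numbered 2 were the higher in each. The log2 difference between regions was -0.06 ± 0.36 (SE), 0.15 without distal 2 and 0.13 without proximal 3. Sparcl1 (hevin), a relative found in vessels and stroma, stood at 151 and 138 FPKM in distal and at 184 and 161 FPKM in proximal libraries. Both proximal values were above both distal ones, by a log2 difference of 0.25 ± 0.30 (SE; 0.29 within number 2, 0.21 within number 3), which did not pass.

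Fibronectin followed the pattern of Thbs1 at a lower level. Fn1 stood at 13.8 and 28.2 FPKM in distal 2 and 3, against 6.43 and 12.4 FPKM in proximal 2 and 3. Both proximal values lay below both distal values, with a ratio of means of 2.23. The log2 difference was -1.06 ± 0.53 (SE; unadjusted p = 0.0991, adjusted p = 0.9999, limma), -0.998 within number 2 and -1.13 within number 3. Leaving out distal 2 gave -1.55 and leaving out distal 3 gave -0.57, the extremes over the 4 libraries.

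Tenascin C and periostin were highest in proximal 3. Tnc stood at 2.53 and 15.04 FPKM in distal 2 and 3, against 2.80 and 32.4 FPKM in proximal 2 and 3. The libraries separated by number and not by region. Its log2 difference between regions was 0.58 ± 1.24 (SE), 0.11 within number 2 and 1.06 within number 3, and it turned to -0.99 without proximal 3 and to -0.51 without distal 2. Postn stood at 21.3 and 31.9 FPKM in distal and at 25.6 and 85.2 FPKM in proximal libraries. Proximal 2 lay between the distal libraries, so the mean difference of 0.82 ± 0.63 (SE) came with 0.26 within number 2 and 1.39 within number 3. Without proximal 3 it was -0.03.

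**Figure D2:**
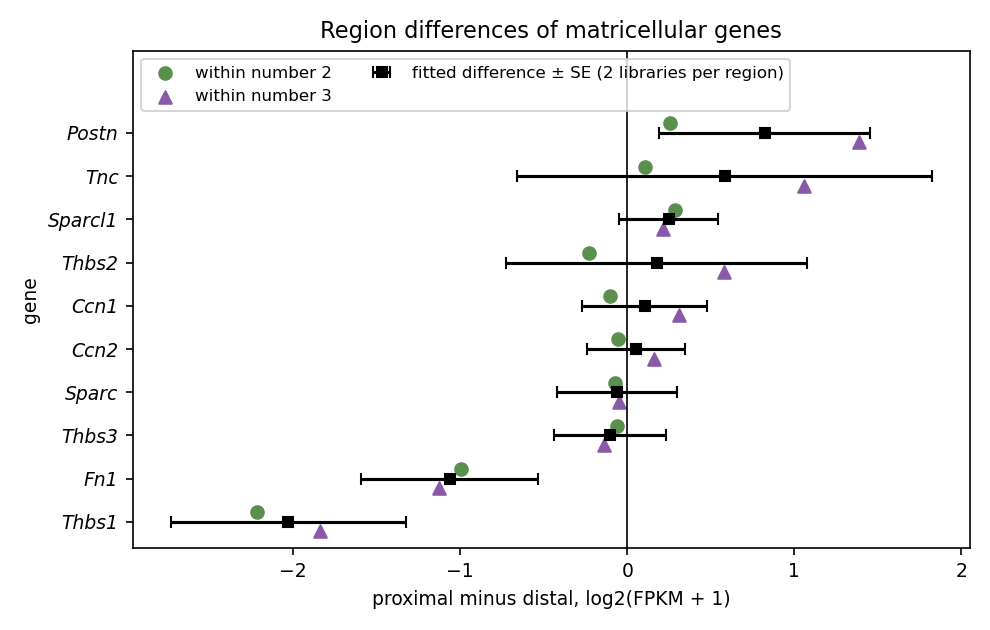
Proximal minus distal difference of each gene on the log2(FPKM + 1) scale: black squares are the fitted difference with its SE (2 libraries per region), green circles the difference within the libraries numbered 2 and purple triangles that within the libraries numbered 3. Thbs1 and Fn1 are below 0 within both numbers, and Ccn1, Ccn2 and Thbs2 have opposite signs in the numbers.

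The regions overlapped for both CCN genes. Ccn2, connective tissue growth factor, stood at 211 and 196 FPKM in distal 2 and 3, against 203 and 219 FPKM in proximal 2 and 3. Its 4 values lay close together and its log2 difference of 0.05 ± 0.29 (SE) became -0.12 under median ratio scaling. Ccn1 stood at 701 and 442 FPKM in distal and at 652 and 549 FPKM in proximal libraries. The libraries numbered 2 were the higher in both regions, and the log2 difference between regions of 0.10 ± 0.37 (SE) became -0.07 under median ratio scaling, -0.23 without distal 3 and -0.02 without proximal 2. Ccn2 shares 665 exon bases with the antisense gene Gm15270, to which no listed transcript was assigned.

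The promoter of Ccn1 is shown because it is the textbook target of YAP/TAZ, which act through TEAD factors. Of the 10 members 6 had a RefSeq promoter entry (Postn, Thbs3, Ccn1, Tnc, Sparc and Thbs2, with 8 windows on GRCm38.p6). The letters GGAATG, the core of the TEAD motif, were searched on both strands with TGANTCA (AP-1), the CArG box of SRF and CAGAC (SMAD). Capitals mark the TEAD match, 103 bases before the start site on the opposite strand, at chr3:145649936-145650235 (minus strand):
Ccn1 promoter: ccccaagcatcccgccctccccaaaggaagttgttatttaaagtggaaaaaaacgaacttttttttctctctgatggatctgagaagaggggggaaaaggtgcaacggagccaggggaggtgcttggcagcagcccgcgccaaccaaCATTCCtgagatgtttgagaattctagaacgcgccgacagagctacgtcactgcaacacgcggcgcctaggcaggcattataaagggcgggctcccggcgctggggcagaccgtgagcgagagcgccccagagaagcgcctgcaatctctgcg
Of all 32851 promoter windows of this length, 14.7% held GGAATG, 7.81% TGANTCA, 1.63% a CArG box and 49.6% CAGAC. Among the windows of the 6 members, that of Ccn1 was the 1 with GGAATG, while 0 held TGANTCA or a CArG box. CAGAC stood in 6 of the 8 windows, those of Ccn1, Sparc and Thbs2, both of Tnc and 1 of Postn. The 2 Tnc windows overlap and share 1 of these sites. The Postn window with CAGAC lies 1840 bases from the nearest start of a detected model. The other Postn window, at such a start, held 0.

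Transcript estimates gave a further view of 3 matrix genes. Cufflinks divides fragments among overlapping transcript models, so each share below is an estimate with no test, and a listed 0 need not mean an absent transcript. Each of the 7 models that span Fn1 equalled 1 GENCODE transcript in spliced length once the transcript ends were set to those of the model. Exon content was solved from how much shorter each was than the longest model. The pieces that could be missing were the EIIIA exon (270 bases), the EIIIB exon (273 bases) and 75 or 360 bases of 1 variable exon. Exon content is therefore inferred from length, since the deposited tables list no exons. The EIIIA and EIIIB exons, which code for extra type III repeats of cellular fibronectin and are left out of plasma fibronectin, are shown in capitals with 12 flanking bases on each side. EIIIA lies at chr1:71603660-71603929 and EIIIB at chr1:71613763-71614035 (both minus strand, mm10, sequence from GENCODE M21):
Fn1 EIIIA: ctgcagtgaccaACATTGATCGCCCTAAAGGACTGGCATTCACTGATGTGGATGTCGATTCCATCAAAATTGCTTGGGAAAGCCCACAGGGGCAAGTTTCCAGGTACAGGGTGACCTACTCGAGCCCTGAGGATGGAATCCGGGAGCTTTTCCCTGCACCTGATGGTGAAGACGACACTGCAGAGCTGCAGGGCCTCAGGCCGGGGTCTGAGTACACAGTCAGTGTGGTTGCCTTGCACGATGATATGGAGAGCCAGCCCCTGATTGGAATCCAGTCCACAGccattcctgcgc
Fn1 EIIIB: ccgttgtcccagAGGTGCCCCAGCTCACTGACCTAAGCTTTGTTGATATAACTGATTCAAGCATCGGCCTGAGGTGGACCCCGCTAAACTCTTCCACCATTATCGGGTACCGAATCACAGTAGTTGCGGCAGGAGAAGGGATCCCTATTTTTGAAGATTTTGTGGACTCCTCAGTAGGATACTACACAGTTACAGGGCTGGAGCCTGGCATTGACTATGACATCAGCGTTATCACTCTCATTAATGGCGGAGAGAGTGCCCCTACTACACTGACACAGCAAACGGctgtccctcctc
Models with the EIIIA exon held 0% of the Fn1 FPKM in distal 2, 13.5% in distal 3, 17.3% in proximal 2 and 52.0% in proximal 3. Both proximal shares were above both distal shares. The level of these models was 3.81 FPKM in distal 3 and 6.45 FPKM in proximal 3, so the region with the lower Fn1 total had the higher EIIIA level among the libraries numbered 3. The EIIIB exon was in 1 model, with 13.5% in distal 3, 32.5% in proximal 3 and 0% in both libraries numbered 2. The full-length form of the variable exon downstream held 61.5% to 77.9% in the first 3 libraries and 100% in proximal 3.

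Periostin models differed in 2 skipped exons near the 3′ end of the coding region. They are shown in capitals with 12 flanking bases, because the 3 detected Postn models differ in them. The exon of 81 bases, number 17 of 22 in its transcript, lies at chr3:54380412-54380492 and that of 84 bases, number 20 of 22 in a transcript without the former, at chr3:54385671-54385754 (plus strand, mm10, GENCODE M21):
Postn 81-base exon: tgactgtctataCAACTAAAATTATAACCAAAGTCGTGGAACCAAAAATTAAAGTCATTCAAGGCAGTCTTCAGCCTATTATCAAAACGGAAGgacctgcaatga
Postn 84-base exon: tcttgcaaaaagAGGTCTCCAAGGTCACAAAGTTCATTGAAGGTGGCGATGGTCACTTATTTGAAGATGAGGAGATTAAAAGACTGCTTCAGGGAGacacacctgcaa
The model with neither exon held 80.9% and 84.6% of the Postn FPKM in distal 2 and distal 3 and 62.5% and 52.4% in proximal 2 and proximal 3. The model with the 84-base exon had a listed value of 0 in distal 2 and distal 3 and stood at 2.99 and 13.2 FPKM in the proximal libraries, with deposited bounds of 2.44 to 3.54 and 11.9 to 14.4 FPKM. The model with the 81-base exon held 19.1% and 15.4% in distal and 25.8% and 32.2% in proximal libraries. These shares did not overlap between the regions.

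Tenascin C has alternatively spliced type III repeats between its constant ones. The short Tnc model of 5468 bases was 1365 bases shorter than the GENCODE transcript with the same ends, which equals the length of 1 run of 5 consecutive exons of 273 bases each. The long model also starts further upstream, at 64047015 against 64020725 on chromosome 4 (minus strand, mm10), so the shares of the models do not describe repeat splicing alone. The long model of 7100 bases held 46.4% and 79.5% of the Tnc FPKM in distal 2 and distal 3 and 28.0% and 34.4% in proximal 2 and proximal 3. In distal 2 and proximal 2 the whole gene stood under 3 FPKM, and the deposited bounds of the long model spanned 0.994 to 1.36 and 0.625 to 0.942 FPKM. The 2 models of Thbs1 and the 2 of Sparc differed by 3 bases. The longer Thbs1 model held 55.0% and 54.2% in distal and 56.8% and 56.6% in proximal libraries, and the longer Sparc model 81.8% and 81.4% against 82.3% and 82.7%. These small differences also left the regions without overlap. Of the 5 members with more than 1 detected model, the share of the most abundant model did not overlap between regions in 4 (Thbs1, Sparc, Tnc and Postn), against 24.1% of 5087 such genes. The deposited bounds of the Thbs1 and Sparc models had half-widths of 4.15% to 4.93% of the value, and Tnc was low in the libraries numbered 2. The count therefore does not show a region difference in transcript use, which was not tested.

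**Figure D3:**
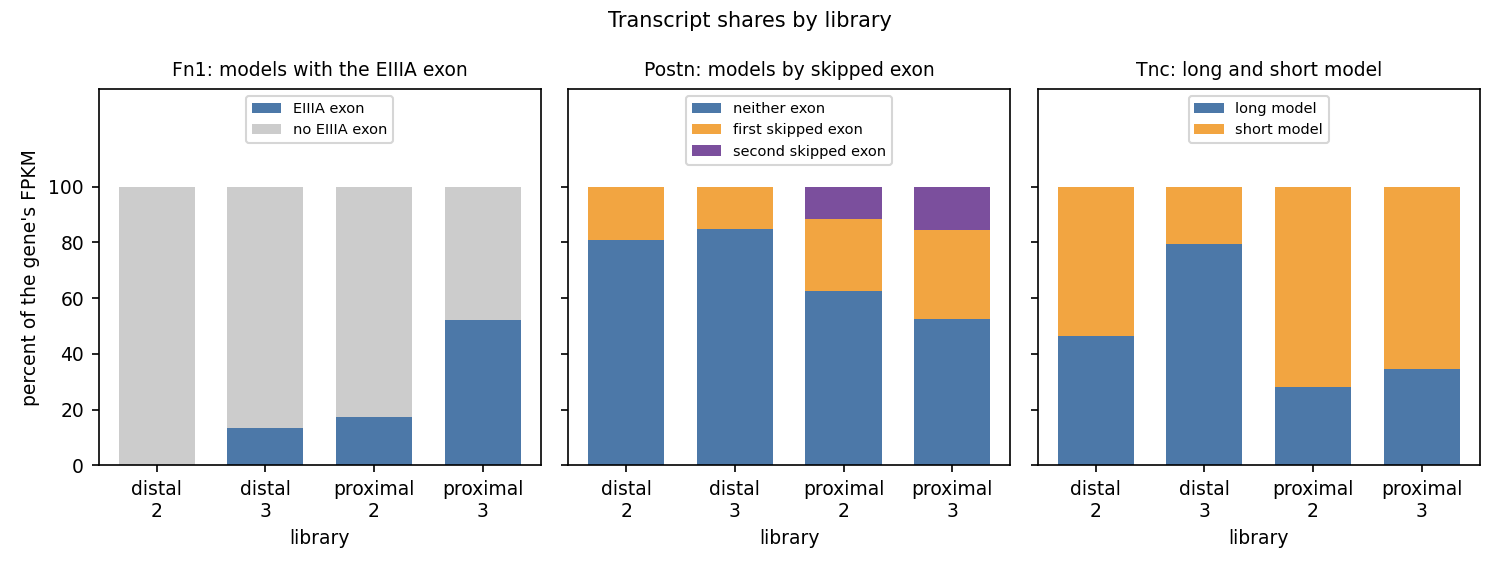
Share of each gene's FPKM held by groups of transcript models in each library (left, Fn1 models with and without the EIIIA exon; middle, Postn models by skipped exon; right, long and short Tnc model). The EIIIA share of Fn1 is highest in proximal 3 (52.0%), and the Postn model with neither skipped exon is below 65% only in the proximal libraries.

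Library number left 6 members without overlap and region 3. Both libraries numbered 3 lay above both numbered 2 for Thbs2, Tnc and Postn and below them for Sparc, Thbs3 and Ccn1, 6 of 10 members in all, against 70.6% of all genes (20.2% above and 50.3% below). The log2 difference of number 3 minus number 2 was 2.18 in distal and 3.14 in proximal stroma for Tnc, 1.46 and 2.27 for Thbs2, and 0.56 and 1.69 for Postn. For Thbs1 it was 1.23 and 1.61, and for Fn1 0.98 and 0.85, although the numbers overlapped across regions for both. The median over all genes was -0.31 in distal and -0.36 in proximal stroma. No label says what the numbers stand for.

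**Figure D4:**
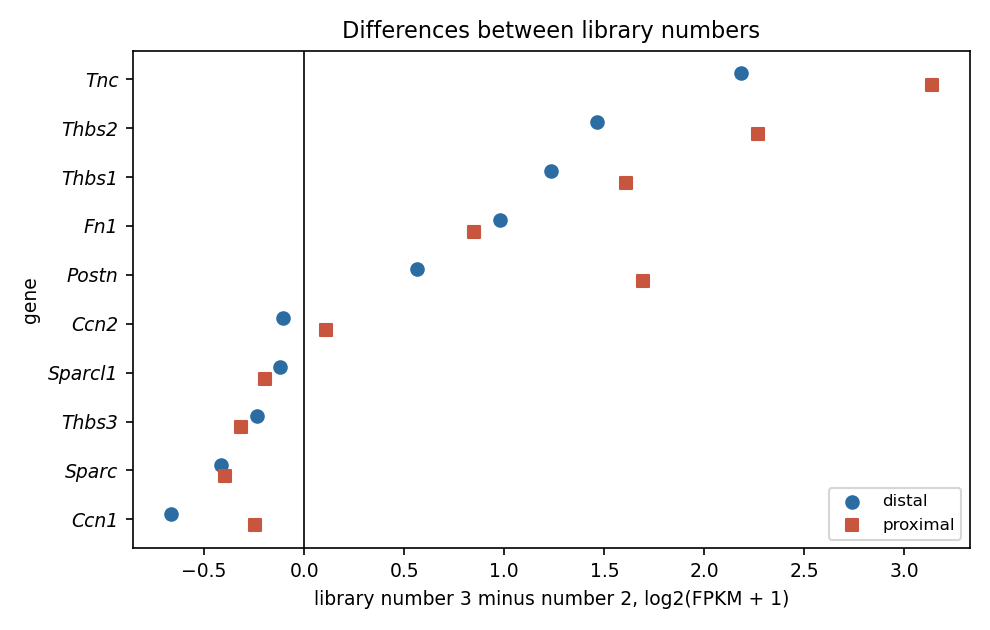
Difference of library number 3 minus number 2 on the log2(FPKM + 1) scale, 1 library against 1, in distal (blue circles) and proximal stroma (red squares). Tnc, Thbs2, Thbs1, Fn1 and Postn are higher in number 3 in both regions, and Ccn1, Sparc, Thbs3 and Sparcl1 are lower in both.

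Markers of other cells moved with the libraries where Tnc, Thbs2 and Postn were highest. The 5 basal epithelial markers summed to 8.28 and 39.6 FPKM in distal 2 and 3, against 19.5 and 120 FPKM in proximal 2 and 3, and 5 of 5 were highest in proximal 3. The 7 luminal markers summed to 137 and 221 FPKM in distal and to 129 and 633 FPKM in proximal libraries, and 7 of 7 were highest in proximal 3, among them Cd24a, the gene of the excluded CD24 (54.5 FPKM there and 8.06 to 19.1 FPKM elsewhere). Their part in the levels and transcript shares of Tnc, Thbs2, Postn and Fn1 was not tested. The 7 smooth muscle markers summed to 389 and 270.0 FPKM in distal and to 354 and 191 FPKM in proximal libraries. The sum was lower in number 3, as were Sparc, Ccn1 and 50.3% of all genes. Acta2, Tagln and Des were lower in both libraries numbered 3, while Myh11, Actg2, Cnn1 and Smtn overlapped between numbers. The part of smooth muscle in the levels of Sparc and Ccn1 was not tested. The 7 pericyte markers summed to 53.6 and 58.1 FPKM in distal and to 78.2 and 73.5 FPKM in proximal libraries, without overlap between regions. Among them Pdgfrb (33.9 and 36.6 against 64.3 and 58.4 FPKM) and Abcc9 were higher and Cspg4 (15.05 and 17.65 against 7.25 and 7.73 FPKM) lower in both proximal libraries, and their part in the region differences given here was not tested. Platelet markers, which could accompany Thbs1, summed to at most 0.981 FPKM with Gp1bb at 0. Pf4 stood at 0.3325 and 0.2949 FPKM in distal and at 0 in both proximal libraries. Itga2b, Gp9 and Ppbp overlapped between regions. Endothelial markers summed to at most 10.5 FPKM and leukocyte markers to at most 4.23 FPKM with Cd3e at 0. The part of these cells in the level of Thbs1 was not tested. The 10 fibroblast markers, Ly6a for Sca-1 among them, summed to between 5282 and 6583 FPKM. Dcn was the largest of them, at 2470 and 2353 FPKM in distal 2 and 3, against 2872 and 3671 FPKM in proximal 2 and 3. Pdgfra, Col1a1, Col1a2, Col3a1 and Thy1 were lower in both libraries numbered 3, and Lum and Vim higher. The sum therefore does not show that fibroblast content was level. In bulk samples, fewer cells of a type and less RNA per cell cannot be told apart.

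Relatives outside the 10 members went both ways. Of 21 listed matricellular relatives 13 were tested, and 0 passed in either direction (limma). Both proximal libraries lay above both distal ones for 5 of the 13 and below them for 4, with a median log2 difference of -0.11. Over all genes these shares were 13% above and 8.65% below, and over the 7 lists given here together 21 (15.4%) and 26 (19.1%) of 136 tested genes. With library number as a term, 6 of the 13 relatives passed (5 higher and 1 lower in proximal stroma, limma), Vtn, Tgfbi, Spock2 and Ccn3 among them. Over all genes this fit called 2.79% as higher and 1.34% as lower. Spock1, among the 5 higher ones, reached the filter of 1 FPKM only through the proximal libraries. The same fit called 2 of the receptors (Itga4 and Itga8), 5 of the matrix assembly genes and 2 of the TGF-beta genes below, and 0 in the other 3 lists. Vitronectin (Vtn), an integrin-binding plasma and matrix protein, stood at 1.52 and 1.72 FPKM in distal and at 21.9 and 27.2 FPKM in proximal libraries, and was the member of this list with the largest difference, 3.28 ± 0.39 (SE; adjusted p = 0.322, limma; 0.0274 without distal 2). The periostin paralog Tgfbi stood at 4.85 and 5.45 against 14.9 and 18.2 FPKM, and the SPARC relative Spock2 at 4.28 and 3.77 against 9.55 and 12.5 FPKM. Ccn3, chosen after its values were seen, was the CCN gene with separated regions and the larger difference, at 43.2 and 50.4 FPKM in distal and 18.7 and 24.5 FPKM in proximal libraries.

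Receptors and surface partners gave 0 calls among 19 tested of 23 listed (limma), with a median log2 difference of -0.23. In both proximal libraries 2 were higher and 5 lower, against 13% and 8.65% of all genes. The thrombospondin receptor Cd47 stood at 189 and 152 FPKM in distal and at 145 and 117 FPKM in proximal libraries, while Cd36 did not exceed 0.263 FPKM and was not tested. The fibronectin receptor subunit Itga5 stood at 160 and 387 FPKM in distal 2 and 3, against 65.2 and 373 FPKM in proximal 2 and 3. Its partner Itgb1 stood at 188 and 237 against 175 and 169 FPKM, and Itgav, which pairs with several beta subunits, at 26.5 and 59.0 against 17.2 and 31.1 FPKM. Itga5, Itgav, Fn1 and Thbs1 were all higher in number 3 within both regions, while Cd47 was lower within both. Of the 19 tested genes of this list, 6 were higher and 6 lower in both libraries numbered 3. Over all genes these shares were 20.2% and 50.3%. Lrp1, which takes up thrombospondins, stood at 40.7 to 60.5 FPKM over the 4 libraries. Itga8 and Itga4 were low but separated, at 0.341 and 0.447 against 2.93 and 3.70 FPKM and at 0.0261 and 0.0611 against 1.60 and 1.26 FPKM, while Itgb3 stood at 1.19 and 2.21 against 0.609 and 0.502 FPKM. Itga8 and Itga4 reached the filter of 1 FPKM only through the proximal libraries, and Itgb3 only through the distal ones. Their separation is therefore not independent of the filter.

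Matrix assembly and processing partners gave 0 calls among 19 tested of 20 listed (limma), with a median of -0.06. In both proximal libraries 4 were higher and 5 lower, against 13% and 8.65% of all genes. The proteoglycanase Adamts4 stood at 478 and 620 FPKM in distal and at 108 and 285 FPKM in proximal libraries, a log2 difference of -1.63 ± 0.53 (SE), which was -2.32 without proximal 3 and -0.93 without proximal 2. The collagen cross-linking enzyme Loxl2 stood at 31.8 and 35.7 against 17.0 and 12.1 FPKM. Bmp1, the procollagen proteinase that periostin binds, stood at 49.6 and 26.2 against 44.6 and 13.1 FPKM.

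Genes of the pathways that drive CCN transcription also gave 0 calls (limma). Over all genes 13% were higher and 8.65% lower in both proximal libraries, the shares to set beside the counts here. Of 29 tested Hippo pathway and YAP/TAZ response genes (32 listed), 3 were higher and 6 lower in both proximal libraries, with a median of -0.05. Yap1 stood at 35.4 and 35.7 FPKM in distal and at 24.6 and 22.3 FPKM in proximal libraries, and Wwtr1, which encodes TAZ, at 92.2 and 137 against 59.0 and 108 FPKM. Among response genes Fjx1 stood at 22.3 and 24.5 against 13.7 and 8.30 FPKM, Gadd45a at 110.3 and 77.0 against 57.4 and 52.7 FPKM and the receptor kinase Axl at 222 and 218 against 172 and 112 FPKM. Fjx1, Gadd45a and Axl were named for the size of their difference and do not stand for the list. Amotl2 (32.9 and 26.7 against 35.6 and 51.35 FPKM), Ajuba and Ptpn14 were higher in both proximal libraries. For Ccn1 and Ccn2 the regions overlapped. Of 18 MRTF/SRF genes, 0 were higher and 3 lower in both proximal libraries (median -0.16), namely Actb, Actg1 and zyxin (Zyx, 95.6 and 84.0 against 62.2 and 51.5 FPKM). Of 24 immediate early genes, 4 were higher and 2 lower (median 0.32), with Fosb at 235 and 201.2 FPKM in distal and 385 and 459 FPKM in proximal libraries, Atf3 at 400 and 207 against 476 and 545 FPKM and Egr2 at 74.9 and 46.1 against 94.7 and 82.1 FPKM. Of these 24, 10 were lower in both libraries numbered 3, where 50.3% of all genes were.

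TGF-beta is activated by thrombospondin 1 and induces Fn1, Postn and Ccn2. Its ligands, receptors, SMADs and binding proteins gave 0 calls among 14 genes tested (limma), with a median of -0.14. In both proximal libraries 3 were higher and 1 lower, against 13% and 8.65% of all genes. Tgfb1 stood at 23.9 and 30.6 FPKM in distal and at 14.6 and 18.6 FPKM in proximal libraries, the 1 gene of the list with the direction of Thbs1 in both proximal libraries. Tgfb2 stood at 2.38 and 5.66 against 8.37 and 28.2 FPKM, and like Postn and Tnc it was highest in proximal 3. Tgfb3 stood at 38.3 to 51.4 FPKM over the 4 libraries, the receptor Tgfbr3 at 21.8 and 17.3 against 40.8 and 32.7 FPKM and Ltbp2 at 1.46 and 2.53 against 3.94 and 4.78 FPKM.

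The genes whose profile over the 4 libraries was most like that of Thbs1 were Cxcl1, Ccl2 and Osmr. Likeness was the Euclidean distance between mean-centred log2(FPKM + 1) values, computed for 7422 genes with a mean of at least 5 FPKM, and it is a description over 4 libraries. The neutrophil chemokine Cxcl1 (distance 0.34) stood at 400 and 1095 FPKM in distal 2 and 3, against 119.9 and 309 FPKM in proximal 2 and 3. The monocyte chemokine Ccl2 (distance 0.40) stood at 1261 and 2207 against 284 and 693 FPKM, and the oncostatin M receptor subunit Osmr (distance 0.42) at 50.9 and 128 against 14.5 and 45.2 FPKM. For Fn1 the nearest were Rai14 (distance 0.07), at 6.86 and 14.2 against 2.92 and 5.66 FPKM, the mitochondrial superoxide dismutase Sod2 (0.11), at 35.5 and 70.2 against 15.7 and 29.5 FPKM, and the glycosyltransferase B3gnt2 (0.15), at 98.5 and 185 against 50.6 and 79.9 FPKM.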

How the data were processed

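RNA of 4 libraries was made into cDNA with a SMART-Seq kit and sequenced, per the labels' protocols. bcl2fastq 1.8.3, TopHat2 0.6 and Cufflinks 0.0.6 with mm10 are named in the submitters' processing notes, without roles. The deposited tables give FPKM with bounds and a coverage signal for 63241 transcripts, per the file headers, and no counts. Absolute depth is unknown; the ratio of the deposited coverage signal to FPKM had a median of 5.22 to 6.34 by library. Bounds of single models of Thbs1, Thbs2, Thbs3, Sparc, Sparcl1, Ccn1 and Ccn2 had half-widths of 1.02% to 5.92% of the value, covering estimation error within a library only.

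Transcripts were named by span and length against GENCODE M21 (87.67% named) and FPKM was summed per gene; 7 genes with a failed or capped estimate were left out, none a member. Genes with at least 1 FPKM in at least 2 libraries were tested as log2(FPKM + 1) with limma 3.58.1 in R 4.3.3 (region as the only term, mean trend), two-sided. The fit was tested on simulated data with independent noise and no effect of library number. That test does not give the power of the fit on these libraries. Fold changes on this scale understate the change of low genes. With 2 libraries a region, exact permutation gives no p below 0.333. Python 3.11.15, pandas 2.3.3 and matplotlib 3.10.9 were used besides. The members and 7 gene lists were chosen with earlier results of these data known. Besides Amotl2, Ajuba and Ptpn14, given for the other direction, named from each list were the 3 genes with the largest difference and separated regions. Receptors or direct partners of members were named too. A gene that this rule names is not reported here.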

Additional observations from a re-analysis of the deposited data

How the results depend on the processing

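Pseudocount 0.1, no filter, a filter of 5 FPKM, quantile normalization, median ratio scaling and naming by span and length alone each left 0 calls among all genes, members and lists. With the library number as a term (replicate block), 465 genes passed (limma), among them 2 of 10 members, Thbs1 (adjusted p = 0.0220, limma) and Fn1 (0.0242), and 15 of 136 listed genes; the percentages over all genes were 2.79% higher and 1.34% lower. The number 3 minus number 2 differences of the regions correlated across genes at r = 0.816, but with 2 pairs and no label on what a number marks this is a hint only. With 1 library left out, a fit that mixes region with number and assumes that the lone library varies like the others, 0 to 40 genes passed (40 without distal 2, 26 without distal 3), 0 members, and 0 to 1 listed genes (Vtn, without distal 2).

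Of 110 alternative values of members, 93 kept direction and call, 15 changed sign and 2 passed. The filters, the library number term and naming by span and length left every member's difference exactly as it was. A change of sign could therefore come only from the other settings. Under median ratio scaling the difference was -0.12 for Ccn2, -0.0698 for Ccn1, -0.15 for Lrp1 and -0.00826 for Tgfb3. With 1 library left out the differences ranged from -0.96 to 1.31 for Thbs2, -0.26 to 0.0536 for Thbs3, -0.27 to 0.15 for Sparc, -0.99 to 2.15 for Tnc, -0.0251 to 1.67 for Postn, -0.0018 to 0.11 for Ccn2, -0.23 to 0.44 for Ccn1, -1.39 to 0.30 for Bmp1, -1.92 to 0.58 for Itga5 and -0.26 to 0.30 for Lrp1. The cause of these changes was not tested. Shares by coverage times length moved the mean of the long Tnc model in proximal stroma from 31.2% to 37.0%. The short Tnc model moved down by as much there. Any other share that moved did so by less than its SD. Absolute depth is unknown.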
